A study of Mus musculus with 6 samples.

Results

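The liver X receptors (LXRs), their RXR partners and 6 of their classical target genes were followed in leukaemic pre-B cells given Cre recombinase against cells given a control construct. The 10 genes were chosen by name: the LXR genes Nr1h2 and Nr1h3, the RXR genes Rxra and Rxrb, and the targets Abca1, Abcg1, Srebf1, Mylip, Pltp and Lpcat3. Each gene was read from a probe set that carried its symbol and no other, and from the one with the highest mean over all 6 arrays where there were several. Of these 10, 9 were measured, each by 1 probe set, among 19938 named genes, so the mean decided nothing. Nr1h2, which encodes LXR-beta, was not analysed here. The genes were picked with earlier results of these data known, so their differences describe these arrays and are not independent evidence of a direction.

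The cells were C57BL/6 pre-B cells transformed by BCR-ABL1, the oncogenic kinase of Ph+ acute lymphoblastic leukaemia (ALL), and all carried Inpp5d fl/fl. Inpp5d encodes SHIP1, a phosphatase that dampens PI3K signalling by dephosphorylating PIP3. For 3 arrays the cells carried PMIP-CRE-ERT2 from transduction, a Cre that becomes active on binding tamoxifen (Cre-ERT2 arrays), and for 3 arrays PMIP-ERT2, which lacks Cre (ERT2 control arrays). Both groups were puromycin-resistant and received 4OH-Tamoxifen at 0.5 µM for 2 days. No arm had Cre without floxed alleles, so Cre activity and loss of Inpp5d cannot be told apart. Separate cultures are not stated for the replicate arrays, and the p-values therefore cover the spread among these 6 samples, which may be technical.

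LXRs are nuclear receptors that are activated by oxidised sterols and by late intermediates of cholesterol synthesis. They bind DNA as heterodimers with RXR, at paired half-sites with a short spacer, and without ligand they hold corepressors there. With ligand they induce genes that export cholesterol from the cell, remove lipoprotein receptors from its surface, remodel phospholipids and start fatty acid synthesis through SREBP1. The pathway is best known in macrophages, liver and intestine, and in lymphocytes it has been linked to the sterol supply needed for division.

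Inpp5d itself was not lower in the Cre-ERT2 arrays, where its log2 values were 13.37, 13.34 and 13.34, against 13.20, 13.21 and 13.17 in the ERT2 control arrays (limma adjusted p = 0.0545). It is not known here if this probe set lies within the floxed exons, and groups are called by their labels. All 9 measured pre-B cell markers lay above the filter on dim genes, a mean log2 value of 7.35, and 1 of them, the terminal transferase gene Dntt, was called higher in the Cre-ERT2 arrays (log2 fold change 0.33, adjusted p = 0.0176). The linear signals of 10 myeloid markers, summed, were 2554 to 2669 in the Cre-ERT2 arrays and 2025 to 2121 in the ERT2 control arrays. Of these 10 myeloid markers, 5 lay below the filter (Csf1r, Adgre1, Itgam, Cd14 and Ly6g), none was at 0, and Lyz2 was called higher; without Lyz2 the sums were 1489 to 1639 and 1414 to 1514. Summed markers of stromal cells (6 genes) were 2091 to 2471 in the Cre-ERT2 arrays and 1951 to 2050 in the ERT2 control arrays, and those of T and NK cells (7 genes) 1064 to 1186 and 1029 to 1055, with 0 called in either list. Erythroid and megakaryocyte markers (4 genes) overlapped, at 823 to 915 and 821 to 841. The part of these other cell types in the results was not tested, and in bulk RNA fewer cells of a type and less RNA per cell cannot be told apart.

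Of the 9 genes measured, 8 passed the filter and entered limma's fit over 14953 genes, and Abca1 lay below it. Called are genes with an adjusted p under 0.05 over all genes tested. Pltp, Abcg1, Srebf1 and Mylip were called lower in the Cre-ERT2 arrays, none of the 8 was called higher, and Nr1h3, Rxra, Rxrb and Lpcat3 were not called. At an unadjusted p under 0.05, 6 were lower and 1, Nr1h3, higher; over all genes tested, 14.4% were lower and 19.0% higher by that measure. Over all genes tested 7.62% had an adjusted p under 0.05, 4.13% lower and 3.50% higher. The median log2 fold change of the 8 genes was -0.21, against 0.026 over all genes tested. The 3 values of one group did not overlap those of the other in 7 of the 8, which was also the case for 38.5% of all genes tested. In 6 of these 7 all Cre-ERT2 arrays lay below all controls (17.7% of all genes) and in Nr1h3 above them (20.7% of all genes). These shares varied with brightness, over deciles of mean log2 value. All Cre-ERT2 arrays lay below all controls for 29.7% of genes in the decile of Srebf1 and Mylip. The share was 30.2% in that of Abcg1, 23.6% in that of Lpcat3 and 15.5% in that of Pltp and Rxra. The median log2 fold changes of these deciles were -0.057, -0.037, -0.013 and 0.045, in that order. In the decile of Nr1h3, 29.7% of genes had all Cre-ERT2 arrays above and 1.5% below. Since the genes were chosen with these values known, nothing is read from the excess. Counts over all genes were 523 higher and 617 lower, but 223 higher and 2797 lower when each array was centred on its median, which moved the median of all genes to -0.077.

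**Figure D1:**
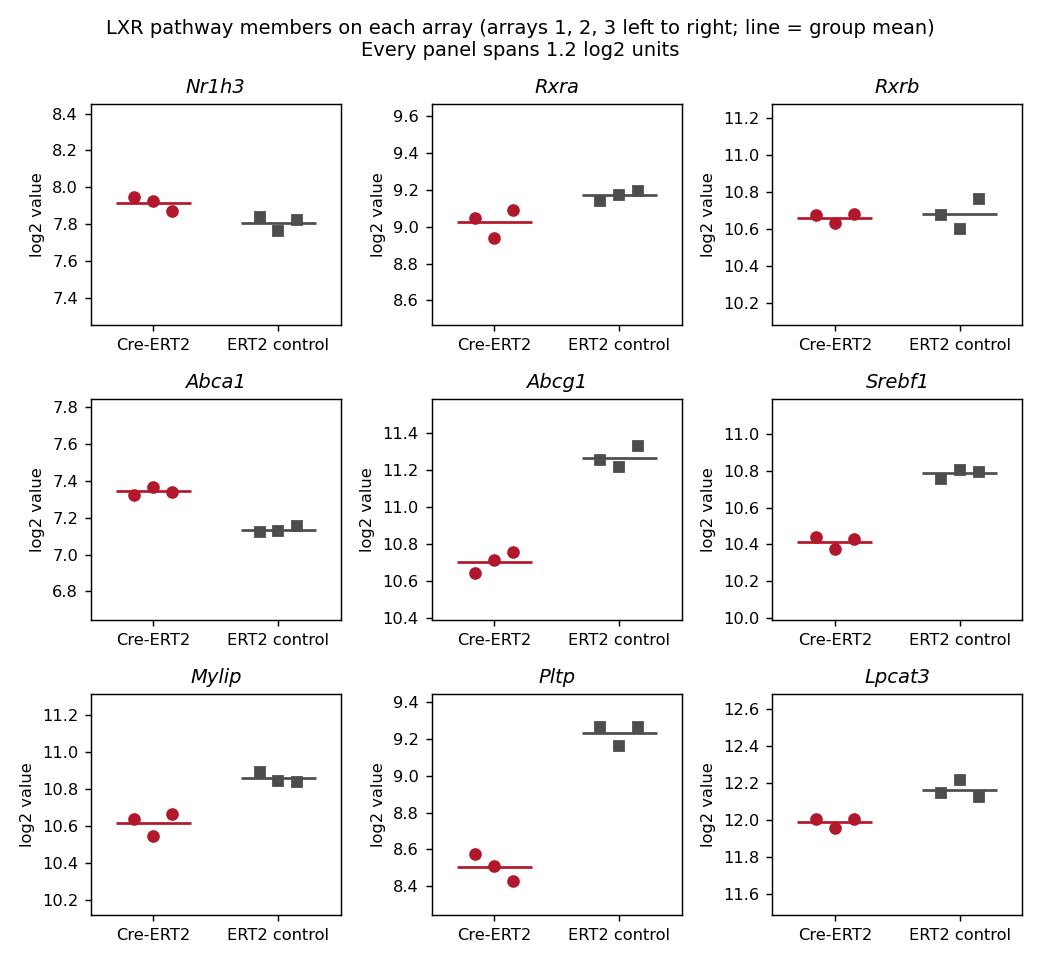
Log2 values of the 9 measured genes on each array, with the Cre-ERT2 arrays as circles on the left and the ERT2 control arrays as squares on the right of each panel; lines are group means, and every panel spans the same range of log2 units. The groups are widest apart for Pltp, where the Cre-ERT2 arrays lie between 8.43 and 8.58 and the ERT2 control arrays between 9.16 and 9.26.

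The receptors showed small differences, none of which was called. Nr1h3, which encodes LXR-alpha, had log2 values of 7.95, 7.93 and 7.87 in the Cre-ERT2 arrays, against 7.84, 7.76 and 7.82 in the ERT2 control arrays. All Cre-ERT2 arrays lay above all controls, by 0.11 ± 0.046 on the log2 scale (SE, adjusted p = 0.148). The gene was dim, and the difference was -0.0023 after quantile normalization was run again, 0.0012 after loess between arrays and 0.0045 after centring. In the deposited values the median difference of all genes in the same brightness decile was 0.12, close to the 0.11 of Nr1h3.

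Rxra, which encodes the RXR that pairs with many receptors in most tissues, had log2 values of 9.05, 8.94 and 9.09 in the Cre-ERT2 arrays and 9.14, 9.17 and 9.19 in the ERT2 control arrays. The groups did not overlap, and differed by -0.14 ± 0.052 on the log2 scale (SE, adjusted p = 0.103). Rxra passed only after centring, the lowest of its adjusted p over the 16 alternatives (0.0216 to 0.229). Rxrb, the second RXR gene, had 10.67, 10.63 and 10.68 against 10.68, 10.60 and 10.76. Its groups overlapped throughout, and its log2 fold change of -0.017 had a 95% interval from -0.14 to 0.11. A change of Rxrb by more than that in either direction lies outside the interval of these arrays, whereas smaller changes were not resolved.

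Pltp had the largest fall of the 8 genes. It encodes phospholipid transfer protein, which moves phospholipids between lipoproteins. Its log2 values were 8.58, 8.51 and 8.43 in the Cre-ERT2 arrays, against 9.26, 9.16 and 9.26 in the ERT2 control arrays. The gap between the groups was several times their spread, and no array of one group came near the other. The mean was 8.50 ± 0.075 in the Cre-ERT2 arrays and 9.23 ± 0.058 in the ERT2 control arrays (SD, n = 3 each), a 1.65-fold fall (log2 fold change -0.73 ± 0.055, SE, limma adjusted p = 7.64e-04). By p-value Pltp ranked 15 among the 14953 genes tested.

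The sterol exporters Abcg1 and Abca1 had differences of opposite sign, and the contrast between them was not tested. Abcg1, a transporter that passes cholesterol to high-density lipoprotein, had log2 values of 10.64, 10.71 and 10.76 in the Cre-ERT2 arrays, against 11.26, 11.22 and 11.33 in the ERT2 control arrays. It fell 1.48-fold (log2 fold change -0.56 ± 0.052, SE, adjusted p = 0.00206) and ranked 26 by p-value. Abca1, which loads cholesterol and phospholipid onto lipid-poor apolipoprotein A-I, had log2 values of 7.32, 7.37 and 7.34 in the Cre-ERT2 arrays, against 7.12, 7.13 and 7.15 in the ERT2 control arrays. Its groups did not overlap either, with the Cre-ERT2 arrays above the controls.

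Abca1 averaged 7.34 ± 0.021 in the Cre-ERT2 arrays and 7.14 ± 0.017 in the ERT2 control arrays (SD, n = 3 each), just below the filter, so it was not part of the main test. In a fit without the filter its log2 fold change was 0.21 ± 0.045 (SE, 95% interval 0.11 to 0.31, limma adjusted p = 0.0586 over 19938 genes). In the deposited values, genes in its brightness decile had a median difference of 0.11, beside its own 0.21, and 26.2% of them had all Cre-ERT2 arrays above all controls. The difference of Abca1 was 0.10 after loess between arrays, 0.11 after quantile normalization and 0.11 after centring; over all alternatives its adjusted p ranged from 0.0291 to 0.348. The 12 alternatives of Abca1 were added after seeing the data, and its difference was positive in each; only the fit with array weights called it (0.0291). Decile medians were not computed after loess, quantile normalization or centring, and a rise of Abca1 beyond that of equally dim genes was not tested.

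Srebf1 encodes the SREBP1 transcription factors, which drive fatty acid synthesis, and LXR is known to induce the SREBP1c form. The 2 forms were not read separately here. Srebf1 had log2 values of 10.44, 10.38 and 10.43 in the Cre-ERT2 arrays, against 10.76, 10.81 and 10.80 in the ERT2 control arrays. The spread within each group was small (SD 0.034 in the Cre-ERT2 arrays and 0.026 in the ERT2 control arrays, n = 3 each). Srebf1 fell by 0.37 ± 0.044 on the log2 scale (SE), 1.29-fold, with a limma adjusted p of 0.00536. It ranked 66 by p-value.

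Mylip encodes IDOL, a ubiquitin ligase that marks lipoprotein receptors for destruction. Its log2 values were 10.64, 10.54 and 10.66 in the Cre-ERT2 arrays and 10.89, 10.84 and 10.84 in the ERT2 control arrays. The groups did not overlap, and the fall was 1.18-fold (log2 fold change -0.24 ± 0.049, SE, adjusted p = 0.0309, rank 500). The call of Mylip ended without any one of Cre-ERT2 arrays 1 and 2 or ERT2 control arrays 1, 2 and 3 (adjusted p from 0.0590 to 0.142), and was kept without Cre-ERT2 array 3 (0.0230). Without the filter on dim genes the adjusted p of Mylip was 0.0586.

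Lpcat3 encodes the acyltransferase that puts polyunsaturated chains into membrane phosphatidylcholine. It had log2 values of 12.01, 11.96 and 12.01 in the Cre-ERT2 arrays, against 12.14, 12.22 and 12.12 in the ERT2 control arrays. All Cre-ERT2 arrays lay below all controls, but the difference of -0.17 ± 0.046 (SE) did not pass (adjusted p = 0.0563, 95% interval -0.28 to -0.066). Lpcat3 passed in 4 of 16 alternatives, with adjusted p from 0.0108 to 0.177 over all of them.

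**Figure D2:**
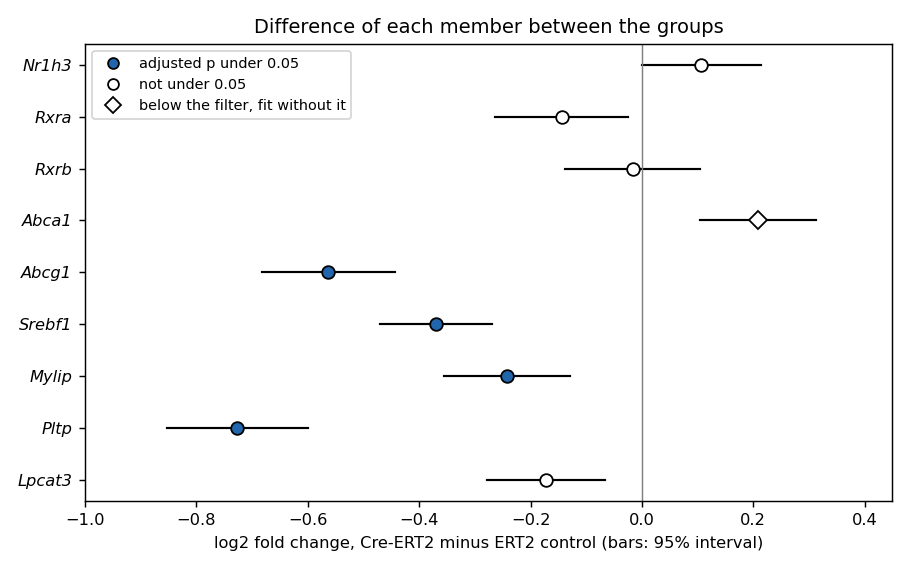
Log2 fold changes of the 9 measured genes (Cre-ERT2 minus ERT2 control) with 95% intervals of limma's fit; filled circles have an adjusted p under 0.05 and the diamond is Abca1, below the filter and fitted without it. Pltp, Abcg1, Srebf1 and Mylip lie to the left of 0, Rxrb lies close to 0 (-0.017) and Abca1 to the right.

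**Figure D3:**
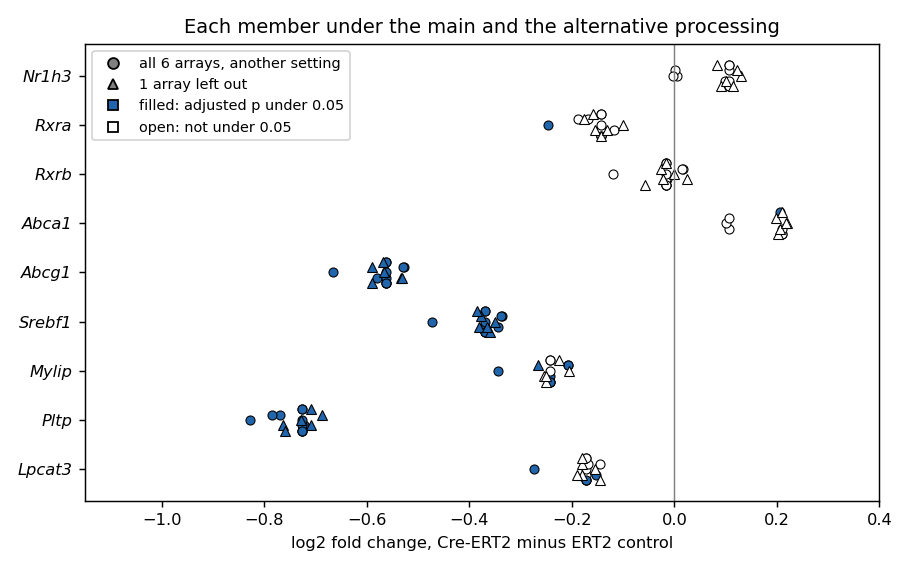
The same log2 fold changes under each processing alternative (circles, all 6 arrays; triangles, 1 array left out), filled where the adjusted p was under 0.05. Every point of Pltp, Abcg1 and Srebf1 is filled, those of Mylip are mixed, and points of Nr1h3 and Rxrb lie on both sides of 0.

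Pltp, Abcg1 and Srebf1 were called in each of the 16 alternatives tried, including the 6 in which 1 array was left out. Each had 1 probe set, so the settings on probe sets and on the filter left its values as they were. Those settings could change only the other genes it was fitted and adjusted with. Their log2 fold changes ranged from -0.83 to -0.69 for Pltp, from -0.67 to -0.53 for Abcg1 and from -0.47 to -0.34 for Srebf1. The highest adjusted p among these fits was 0.0106 for Pltp, 0.0171 for Abcg1 and 0.0437 for Srebf1.

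Promoter sequences of RefSeq (GRCm38.p6; 250 bases before to 50 after a start) were searched for the paired half-site that LXR and RXR bind, because members that differ in one direction may share it. There were 14 windows for 9 of the 10 genes, Nr1h2 included; Abcg1 had none in the table. The strict repeat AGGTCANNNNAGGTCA, on either strand, was in none of the 14 windows and in 0.0152% of all 32851 windows. A relaxed form, GGTNANNNNNGGTCA, chosen after the strict form had been searched, was in 2 of the 14 windows and in 0.207% of all windows. Every strict match also fits the relaxed form. The windows were that of Abca1 and 1 of the 3 of Srebf1. Both matches read on the strand opposite to the gene and are shown because they set the dim Abca1 beside the lower Srebf1. The 15-base matches are written 5′ to 3′ on their own strand, with the half-site letters in capitals.
Abca1: GGTTActaccGGTCA
Srebf1: GGTTActggcGGTCA
They share 13 of 15 bases, and the differences lie between the half-sites. Any matches of the relaxed form agree at its fixed letters and can differ only at its N positions. Most of the likeness was therefore set by the search, and nothing is read from it.

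The whole windows follow on the strand of the gene, with the match in capitals. The window of Abca1 is at chr4:53159846-53160145 (minus strand), and its match starts 67 bases before the start site and ends 53 before it.
Abca1: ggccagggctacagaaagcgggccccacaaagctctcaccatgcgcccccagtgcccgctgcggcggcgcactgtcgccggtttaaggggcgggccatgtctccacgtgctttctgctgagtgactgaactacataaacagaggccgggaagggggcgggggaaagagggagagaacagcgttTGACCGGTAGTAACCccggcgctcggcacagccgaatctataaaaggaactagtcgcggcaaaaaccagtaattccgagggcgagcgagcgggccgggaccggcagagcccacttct
The window of Srebf1 is at chr11:60210422-60210721 (minus strand), with the match from 182 to 168 bases before the start site.
Srebf1: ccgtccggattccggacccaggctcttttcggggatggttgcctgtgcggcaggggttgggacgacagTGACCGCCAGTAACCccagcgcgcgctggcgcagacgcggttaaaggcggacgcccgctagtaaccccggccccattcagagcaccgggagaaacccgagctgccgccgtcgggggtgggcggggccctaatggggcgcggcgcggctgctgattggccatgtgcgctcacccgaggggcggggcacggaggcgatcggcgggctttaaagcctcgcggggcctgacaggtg
Srebf1, which fell, thus carried a match in 1 of its 3 windows. Abca1 carried one too, but its higher values were not shown to exceed those of equally dim genes. Across the array, 25 tested genes had a window with the relaxed form, of which 2 were called lower (Srebf1 and Galc, a lysosomal galactosylceramidase gene) and 1 higher (4933427I04Rik). Beside these counts stand the 4.13% lower and 3.50% higher of all genes tested. Srebf1 was chosen with its values known, and nothing is read from the counts. A match is a description of letters, and its absence from the windows of Pltp, Mylip and Lpcat3 says nothing of sites elsewhere.

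Further genes of the pathway were taken from 7 lists. They named 86 genes, of which 76 were measured and 64 tested: 8 were lower, 2 higher and 54 were not called, beside the 4.13% lower and 3.50% higher of all genes tested; the counts of the single lists below stand beside the same shares. The median log2 fold change of the 64 was 0.013, close to the 0.026 of all genes.

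Among 11 tested further LXR targets, 3 fell, 0 rose and 8 did not pass, with a median log2 fold change of 0.015. Scd1 and Scd2, the desaturase genes, had log2 fold changes of -1.34 and -0.60. Acaca, which encodes acetyl-CoA carboxylase, had log2 values of 11.30, 11.20 and 11.25 in the Cre-ERT2 arrays, against 11.45, 11.53 and 11.51 in the ERT2 control arrays. Its groups did not overlap (log2 fold change -0.24, adjusted p = 0.0288), but the call of Acaca was lost without any 1 of 5 arrays, all except Cre-ERT2 array 3, and without the filter (adjusted p over its alternatives 0.00219 to 0.107). Acaca, Scd1 and Scd2 are also known as targets of SREBP1. Among the 8 that did not pass, the apolipoprotein gene Apoe differed by 0.037 on the log2 scale (adjusted p = 0.627; -0.065 once arrays were centred) and the sterol exporter gene Abcg5 had 0.27 (adjusted p = 0.0601). The fatty acid synthase gene Fasn had -0.15 (adjusted p = 0.0929); Apoe, Abcg5 and Fasn are named here after their values were seen.

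**Figure D4:**
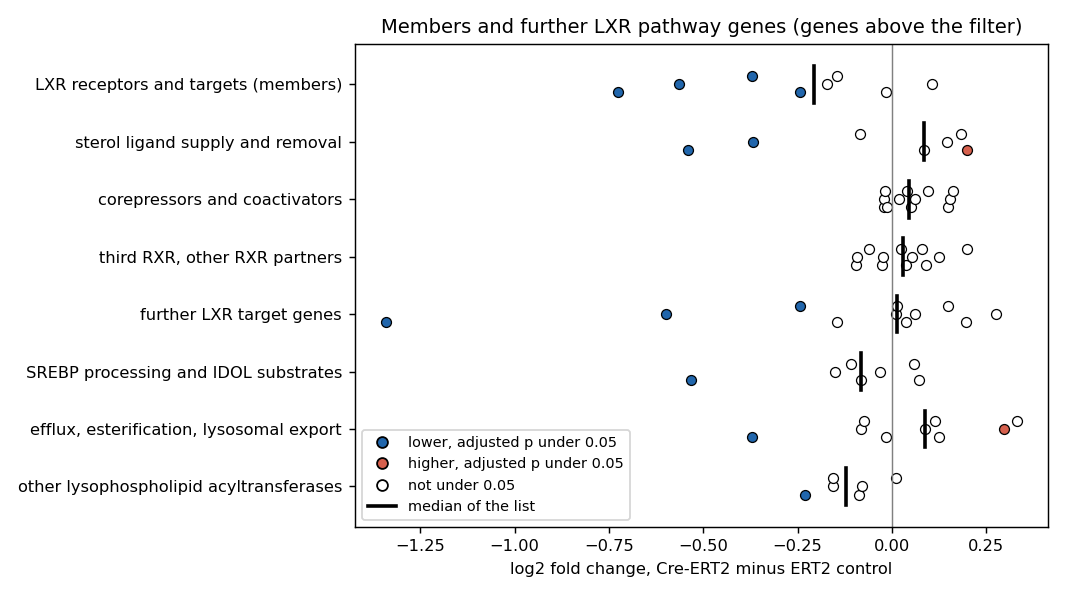
Log2 fold changes (Cre-ERT2 minus ERT2 control) of the genes above the filter in the LXR list and in 7 further lists, 1 point per gene, filled where the adjusted p was under 0.05, with a bar at each list's median. The LXR list has its median at -0.21, while the medians of the other lists lie between -0.12 and 0.087.

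Among genes that make or remove sterol ligands of LXR, calls went in both directions, with the only rise in a dim gene. Of 7 tested, 2 fell, 1 rose and 4 did not pass. Sqle and Lss, whose enzymes act on squalene and its epoxide on the way to lanosterol, had log2 fold changes of -0.37 and -0.54. Sqle had log2 values of 11.66, 11.65 and 11.66 in the Cre-ERT2 arrays, against 12.05, 12.00 and 12.02 in the ERT2 control arrays, and was called in all 16 alternatives. Cyp27a1, which encodes the mitochondrial enzyme that oxidises the cholesterol side chain, had log2 values of 7.89, 7.86 and 7.82 in the Cre-ERT2 arrays, against 7.68, 7.64 and 7.66 in the ERT2 control arrays. It rose by 0.20 ± 0.043 (SE, adjusted p = 0.0350), but its difference was 0.091 to 0.22 over the alternatives, and it was called in 4 of 15 of them. The difference of Cyp27a1 was 0.093 after quantile normalization, 0.097 after centring and 0.091 after loess. In the deposited values, genes in its brightness decile had a median difference of 0.12, beside its own 0.20. Decile medians were not computed after the other normalizations, and a rise of Cyp27a1 beyond that of equally dim genes was not tested. Only the fit without Cre-ERT2 array 3 kept the call of Cyp27a1 among the 6 with 1 array left out.

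Of 12 tested corepressors and coactivators none was called, at a median log2 fold change of 0.046. The histone acetyltransferase genes Ep300 (0.16, adjusted p = 0.0729) and Crebbp (0.15, adjusted p = 0.0830) had the smallest p in the list. In the list of the third RXR and the other receptors that pair with RXR, 12 genes were tested and none was called. Rxrg, the third RXR gene, lay below the filter and was not among the 12. Ppara had 0.20 (adjusted p = 0.0776) and the orphan receptor gene Nr4a1 0.12 (adjusted p = 0.132). At an unadjusted p under 0.05, limma had 3 coregulators and 2 receptors higher and 0 lower in either list, beside the 19.0% higher and 14.4% lower of all genes tested. In the deposited values these receptors, Ppara and Nr4a1, lay in brightness deciles with median differences of 0.11 and 0.12, beside their own 0.20 and 0.12. Their own differences were 0.099 and 0.028 after quantile normalization, 0.097 and 0.023 after centring, and 0.089 and 0.044 after loess. Decile medians were not computed after these normalizations.

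Among 7 tested genes of SREBP processing and of IDOL's substrates, Insig1, which encodes a protein that holds SREBP in the endoplasmic reticulum, fell by 0.53 on the log2 scale, 0 rose and 6 did not pass. Srebf2, the gene of the sterol-specific SREBP, differed by -0.032 on the log2 scale (adjusted p = 0.607). Scap, which escorts SREBP to the Golgi, differed by 0.073 (adjusted p = 0.245; -0.030 once arrays were centred). Lrp8, a lipoprotein receptor that IDOL also marks, had -0.15 (adjusted p = 0.0568). Srebf2, Scap and Lrp8 are named after their values were seen.

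Of 9 tested genes of cholesterol efflux, esterification and lysosomal export, 1 fell, 1 rose and 7 did not pass. Scarb1, which encodes the receptor for high-density lipoprotein, had log2 values of 10.98, 10.98 and 11.06 in the Cre-ERT2 arrays, against 11.31, 11.45 and 11.36 in the ERT2 control arrays. Its log2 fold change was -0.37 ± 0.052 (SE, adjusted p = 0.00915), and without Cre-ERT2 array 1 the adjusted p was 0.0533. Npc1, which encodes the exporter of cholesterol from lysosomes, had 11.55, 11.44 and 11.51 in the Cre-ERT2 arrays, against 11.22, 11.20 and 11.19 in the ERT2 control arrays. It rose by 0.30 ± 0.047 (SE, adjusted p = 0.0148) and kept its direction in all 16 alternatives, but lost its call without Cre-ERT2 array 1 or without any 1 of the 3 ERT2 control arrays, and after centring (0.0504; adjusted p over all alternatives 0.00121 to 0.0826).

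Of 6 tested acyltransferases related to Lpcat3, 1 fell, 0 rose and 5 did not pass. Lpcat1, whose enzyme prefers saturated chains, had log2 values of 10.82, 10.87 and 10.84 in the Cre-ERT2 arrays, against 11.04, 11.02 and 11.16 in the ERT2 control arrays. Its groups did not overlap (log2 fold change -0.23, adjusted p = 0.0369), and the call was kept in 7 of 16 alternatives and, of those with 1 array left out, only without Cre-ERT2 array 3. Lpcat4 and Lpgat1, named after their values were seen, both differed by -0.16 on the log2 scale (adjusted p = 0.0631 and 0.0643).

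**Figure D5:**
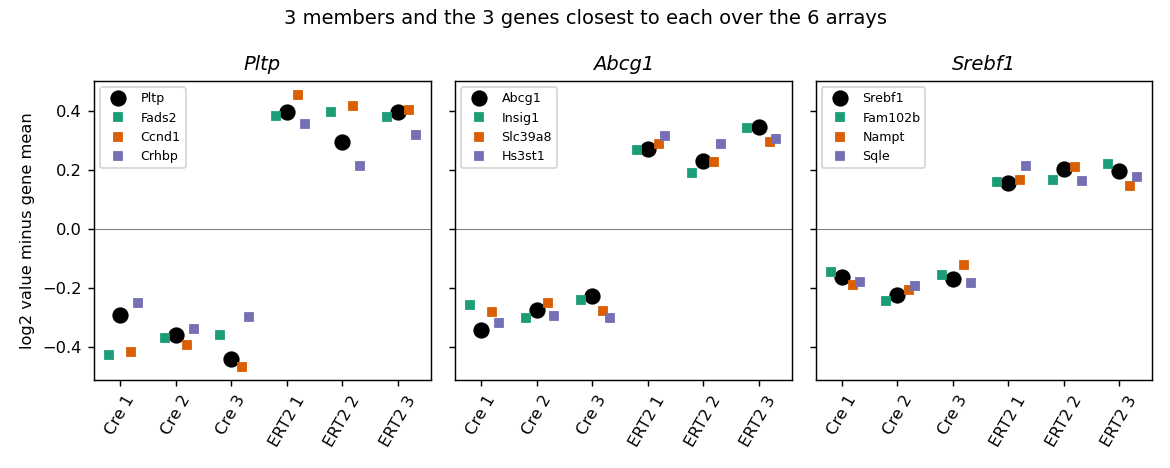
Log2 values minus the gene's mean over the 6 arrays for Pltp, Abcg1 and Srebf1 (black circles) and the 3 genes closest to each (coloured squares), with the Cre-ERT2 arrays on the left. The black circles and the squares share a lower level in the Cre-ERT2 arrays and differ by at most 0.14 on any array.

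The genes whose values over the 6 arrays were most like those of the 3 members with the smallest p were sought among 13952 genes with a standard symbol, by the root mean square difference of log2 values after each gene was centred. For Pltp they were the fatty acid desaturase gene Fads2 (difference 0.077), the cyclin gene Ccnd1 (0.078) and Crhbp, which encodes a binding protein of corticotropin-releasing hormone (0.079). For Abcg1 they were Insig1 (0.040), the zinc and manganese transporter gene Slc39a8 (0.040) and the heparan sulfate sulfotransferase gene Hs3st1 (0.047). For Srebf1 they were Fam102b (0.022), Nampt, which encodes the enzyme that salvages nicotinamide (0.031), and Sqle (0.034). All 9 were called lower, which the measure favours, since most of each member's variation is the gap between the groups. Insig1 lay at 11.17, 11.13 and 11.19 in the Cre-ERT2 arrays, against 11.70, 11.62 and 11.77 in the ERT2 control arrays.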

How the data were processed

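The values the authors deposited are log2 expression of 35556 probe sets on 6 arrays, used as given. Per the submitters' processing notes the tools were RMA and Partek 6.5; their settings and the genome build are not stated in what was used here. Probe sets were named through the platform annotation: 21789 had 1 symbol, 1621 several (not used) and 12146 were not named; 21698 Entrez identifiers matched RefSeq, and 0 symbols changed. Groups were compared as Cre-ERT2 minus ERT2 control with limma (version 3.58.1, under R 4.3.3; lmFit, then eBayes; two-sided, Benjamini-Hochberg over 14953 genes with a mean at or above the 25th percentile, threshold 0.05). Array values carry no count depth; 3 arrays per group limit the precision. The arrays fell into no labelled batch.

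The members and lists were chosen with earlier results of these data known. Named by rule were all members, Inpp5d, every gene of a pathway list called, the 2 smallest p of pathway lists with no call, and the 3 nearest genes of 3 members. Other genes, among them the cell type markers and those with a promoter match, were named after values were seen. The fit was tested on simulated data over 14953 genes: 83% of 100 genes changed by 0.5 and 100% of 100 changed by 1 (log2) were recovered, with 11 false calls. Alternatives were no filter, a 50th percentile filter, the mean of probe sets, all probe sets, quantile normalization, centring, cyclic loess, eBayes with trend and robust, weights per array, a block for replicate number, and each array left out. Python 3.11.15, pandas 2.3.3 and matplotlib 3.10.9 were used for sequences and figures.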

Additional observations from a re-analysis of the deposited data

How the results depend on the processing

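The number of genes called over the array moved from 1140 to 437 when dim genes were kept, 3020 after centring, 2147 with trend and robust estimation, 3993 with array weights and 147 with the replicate number as a block, and lay between 115 and 3056 with 1 array left out (lowest without ERT2 control array 1, highest without Cre-ERT2 array 3). Of the LXR list, 4 genes were called lower in the main fit, 3 with the replicate block (Mylip lost, adjusted p = 0.100), 6 after centring and 3 to 4 with 1 array left out; these fits called none higher, whereas Abca1, fitted without the filter, was called higher with array weights (0.21, adjusted p = 0.0291; range over its alternatives 0.0291 to 0.348). The replicate numbers did not pair the arrays: deviations of same-numbered arrays correlated at 0.069, -0.17 and -0.40. Differently numbered arrays correlated across the groups between -0.30 (Cre-ERT2 array 2 with ERT2 control array 1) and 0.43 (Cre-ERT2 array 2 with ERT2 control array 3). An unlabelled batch or pairing was not tested. The replicate block is therefore named only here, although ranges over alternatives include it. It also ended the calls of Scarb1 (adjusted p = 0.0521), Npc1 (0.0704), Acaca (0.107), Lpcat1 (0.111) and Cyp27a1 (0.117). Signs turned for Nr1h3 after quantile normalization (-0.0023), for Rxrb after quantile normalization (0.015), after loess (0.017) and without ERT2 control array 3 (0.024; -0.057 without array 2), and, after centring, for Apoe (-0.065) and Scap (-0.030); none of these was called. The cause was not tested. Over the 33 genes tried under the alternatives (members, Inpp5d and named pathway genes), 432 results kept their direction and side of the threshold, 42 lost their call, 39 gained one and 6 changed sign. Settings that left a gene's own values unchanged are counted among them. Background correction and probe summarization were not varied, since only summarized values were analysed.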
